A study of Rattus norvegicus with 10 samples.

Results

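The genes of the proteasome, sorted by the subcomplex their protein belongs to, were compared between rats given N,N-dimethyl-p-toluidine (DMPT) and rats given its corn oil vehicle. The list held 39 subunit genes, chosen by name with earlier results of these data known. Of these, 37 were measured by at least 1 probe set annotated to that gene alone, out of 14217 genes measured in the same way. Psmb6 and Psme3 had only probe sets annotated to several genes and were left out. The 37 genes had 51 probe sets among the 31042 tested, and 9 genes had more than 1; the brightest, by its mean level, stood for its gene.

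All animals were male F344/N rats aged 5 to 6 weeks at the start, dosed by oral gavage on 5 consecutive days. The DMPT group received 120 mg/kg/day and the vehicle group corn oil at 0 mg/kg/day, with 5 animals and 5 arrays in each group. DMPT is an aromatic amine that speeds the setting of acrylic cements. The tissue was the transitional epithelium of the nasal cavity, cut out by laser capture, and the RNA was amplified before hybridisation to an Affymetrix rat array. Each array came from 1 animal, so p-values measure the spread between animals; rats were housed in shared cages, and the labels do not say which animals these were.

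The proteasome is the protease that degrades most ubiquitin-tagged proteins of the cell. Its core particle is a barrel: outer rings of alpha subunits guard the entrance, and inner rings of beta subunits carry the peptide-cutting sites. A regulatory particle sits on the end of the barrel; its base holds a ring of ATPases that unfold the substrate, and its lid removes the ubiquitin chain. Interferon replaces the catalytic beta subunits by inducible ones, which gives the immunoproteasome, and other caps, the activators, can open the barrel without ubiquitin. In many cells a shortage of proteasome activity raises the genes of the whole particle together through the transcription factor NRF1 (Nfe2l1), and its relative NRF2 (Nfe2l2), the sensor of electrophiles, has been linked to some of the same genes.

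Values are log2 expression values, and a difference is DMPT minus vehicle on the log2 scale with its standard error from a limma fit over all 31042 probe sets. A gene is called higher or lower where its p-value, with Benjamini-Hochberg adjustment across the whole set tested, is under 0.05. Array medians lay between 8.21 and 8.35, and the mean level of every one of the 37 genes was above that, at 9.09 or more in each group. Vehicle replicate 2 stood apart from the other arrays. It correlated with the other vehicle arrays at a mean r of 0.975, where the other 4 vehicle arrays had 0.985 to 0.986, and it had the highest 3' minus 5' ratio of the GAPDH and actin control probe sets, a measure of RNA quality (1.5 log2 units, against 1.17 to 1.30 in the other vehicle arrays and 0.87 to 1.30 in the DMPT arrays). Each main result is therefore given with and without it. The 10 measured epithelial markers all lay above the median of the arrays, and 3 were called higher (Krt5, Krt7 and Krt8) and 0 lower. Level alone does not mark the tissue, since 0 of 8 motile cilia genes and 2 of 7 stromal genes lay below that median. All 5 measured endothelial genes did. Of 11 dividing-cell genes 10 were higher after DMPT, and of 8 motile cilia genes 7 were lower (4 without vehicle replicate 2), with mean list levels of 10.40 to 10.66 against 9.21 to 9.98 for the first and 8.77 to 10.45 against 10.51 to 11.88 for the second. With all arrays 7.13% of all genes were called higher and 6.77% lower, and 13.7% and 14.5% were at an unadjusted p under 0.05 in limma. Of the other lists, 3 of 5 endothelial genes were higher, and 1 of 6 olfactory neuron genes was higher and 2 lower. Of the stromal genes 0 of 7 were called (0 at an unadjusted p under 0.05 in limma), a count near the background. The part of these shifts in the proteasome values was not tested, and in tissue of this kind fewer cells of a type cannot be told apart from less RNA per cell.

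The promoters are shown first because members that moved and members that did not share sequence letters there. RefSeq promoter windows of assembly GRCr8, from 250 bases before to 50 bases after the gene start, were found for 35 of the 39 genes. The letters TGACNNNGC, the core of the antioxidant response element read by NRF1 and NRF2, were searched on both strands. They stood in 8 of 35 member windows (22.9%) and in 12.1% of all 33469 windows. Among the 4 genes called higher after DMPT, Psmd3, Psmd9 and Psme4 held a match and Psmd2 did not; Psma3, Psmb2, Psmb5, Psmb6 and Psmd1 held one and were not called or not measured. In the stretches below, written 5' to 3' on the strand of the gene, capitals mark the match.
Psmd9, chr12:39018355-39018413, minus strand, match on the opposite strand: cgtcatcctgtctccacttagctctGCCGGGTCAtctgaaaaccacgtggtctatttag
Psmd9, chr12:39018308-39018366, minus strand: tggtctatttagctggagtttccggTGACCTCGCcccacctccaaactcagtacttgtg
Psme4, chr14:108706563-108706621, plus strand, match on the opposite strand: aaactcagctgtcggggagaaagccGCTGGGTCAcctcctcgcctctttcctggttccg
Psmd3, chr10:84139941-84139969, plus strand, match on the opposite strand and just past the gene start: gtttgcagctGCTCGGTCAtcgtgcggcc
Psmb5, chr15:32047406-32047464, minus strand: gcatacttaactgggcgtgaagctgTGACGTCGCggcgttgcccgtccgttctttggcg
Psmb2, chr5:144254965-144255023, plus strand: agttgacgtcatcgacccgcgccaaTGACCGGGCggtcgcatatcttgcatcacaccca
Psmd1, chr9:94157781-94157839, plus strand: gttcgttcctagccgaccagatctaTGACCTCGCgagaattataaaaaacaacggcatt
Psma3, chr6:95219712-95219748, plus strand, match on the opposite strand: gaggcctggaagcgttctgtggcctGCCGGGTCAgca
The lines show the same core in genes that were called (Psmd9, Psme4, Psmd3) and in genes that were not (Psmb5, Psmb2, Psmd1, Psma3). A match describes the letters only and is no evidence that a factor binds there.

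Other motifs were searched in the same way. The repeat read by interferon regulatory factors, GAAA followed by NN and a second GAAA, was found on either strand in 6 of 35 member windows (17.1%) and in 3.92% of all windows. The inducible subunit genes Psmb8 and Psmb10 and the activator gene Psme2 were among the 6, beside Psma4, Psmb3 and Psmd7.
Psmb10, chr19:50743331-50743390, minus strand: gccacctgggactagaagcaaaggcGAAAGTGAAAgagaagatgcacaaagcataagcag
Psmb10, chr19:50743293-50743334, minus strand: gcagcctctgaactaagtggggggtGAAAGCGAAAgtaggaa
Psme2, chr15:33052770-33052829, minus strand: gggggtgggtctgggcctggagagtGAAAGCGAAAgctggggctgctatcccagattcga
Psmb8, chr20:4657016-4657045, minus strand, match on the opposite strand and across the gene start: gtgctgtggcTTTCGCTTTCacttccttgt
CCAAT, read by the NF-Y complex, stood on either strand in 18 of 35 member windows (51.4%) against 37.5% of all, and GGGCGG, a GC box, in 24 of 35 (68.6%) against 33.1%. TTCNNNGAA, the element of STAT factors, stood in 4 of 35 (11.4%) against 8.87%. Overlaps between matches of different motifs were counted for each motif.

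Most proteasome transcripts lay slightly higher after DMPT, and few passed the test. Of 37 measured genes, 34 had a difference above 0, where 49.1% of all genes did. The median difference was 0.18 log2 units, beside -0.0052 over all genes, and the range ran from -0.17 (Psmb9) to 0.54 (Psmb7). In the limma fit 4 of 37 genes (10.8%) were called higher, namely Psmd2, Psmd3, Psmd9 and Psme4, where 7.13% of all genes were. None was called lower, where 6.77% of all genes were; 11 of 37 were higher and 0 lower at an unadjusted p under 0.05, where 13.7% and 14.5% of all genes were. A share of 10.8% is near the background. In 8 of 37 genes every DMPT array lay above every vehicle array, which held for 7.58% of all genes, and in 0 of 37 every DMPT array lay below, which held for 6.29%.

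Without vehicle replicate 2 the called genes became 7 of 37 (18.9%), where 9.19% of all genes were higher, and the median was 0.14. Those 7 were Psmc6, Psmd2, Psmd3, Psmd12, Psmd14, Psme2 and Psme4; Psmd9 was no longer among them. None was lower, where 6.77% of all genes were, and 0 were lower at an unadjusted p under 0.05 in the limma fit, where 14.7% were. Every one belongs to the regulatory particle or the activators, and none to the 16 measured genes of the alpha ring, the beta ring and the immunoproteasome. That contrast between subcomplexes was not tested. In 14 of 37 genes every DMPT array lay above every remaining vehicle array, which held for 11.2% of all genes. Of the 37 differences 35 were above 0, where 52.2% of all genes were. The number of genes called higher was between 1 and 2 without each of the other arrays in turn other than DMPT replicate 1.

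**Figure D1:**
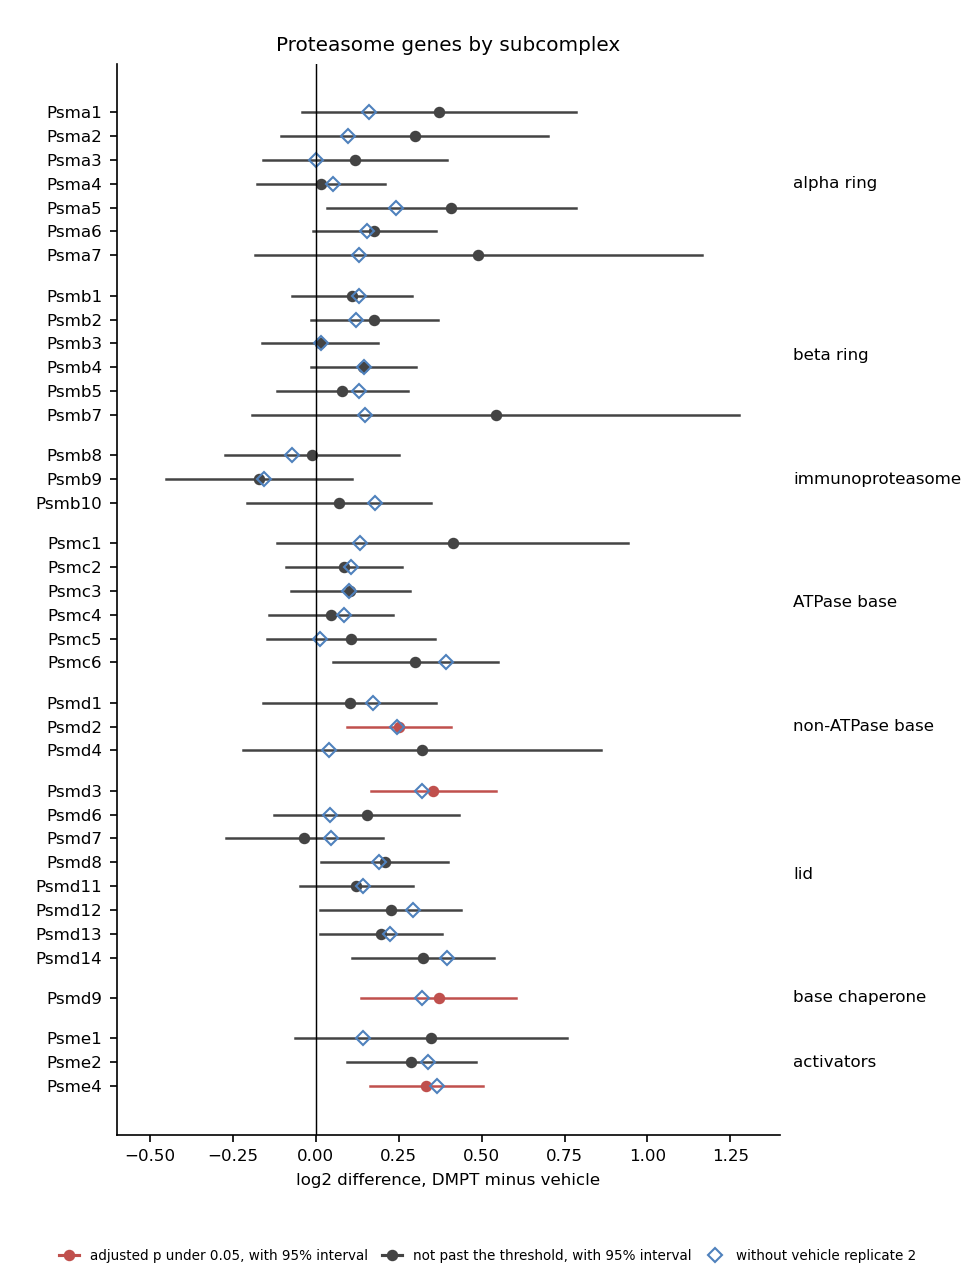
Log2 difference, DMPT minus vehicle, of the 37 measured genes by subcomplex, with 95% intervals from the limma fit (red where the adjusted p is under 0.05) and the difference without vehicle replicate 2 as an open diamond. The 4 red genes are Psmd2, Psmd3, Psmd9 and Psme4, and the diamonds of Psma7, Psmb7, Psmc1 and Psmd4 lie far to the left of their dots.

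Of the base subunits outside the ATPase ring, 1 of 3 was called higher, with and without vehicle replicate 2, beside 7.13% and 9.19% of all genes. With all arrays 1 of 3 was higher and 0 lower at an unadjusted p under 0.05 in the limma fit, beside 13.7% and 14.5% of all genes. Psmd2 is the large scaffold of the base to which ubiquitin shuttle proteins and the deubiquitinase Usp14 dock. Its log2 values were 12.68, 12.73, 12.67, 12.71 and 12.65 after DMPT and 12.38, 12.41, 12.44, 12.50 and 12.45 with vehicle. Every DMPT array was above every vehicle array, and Psmd2 rose by 0.25 ± 0.072 (1.19-fold, adjusted p = 0.0452), with 0.24 without vehicle replicate 2 (adjusted p = 0.0365). Leaving out any single array other than vehicle replicate 2 took the call away, as did quantile normalization (adjusted p = 0.0876), the RNA ratio as a covariate (0.111) and a block on the replicate number (0.124). Psmd4, which binds ubiquitin chains, had values of 11.12, 11.21, 10.90, 11.06 and 11.02 after DMPT and 11.06, 9.63, 10.92, 11.11 and 11.01 with vehicle. The low value is that of vehicle replicate 2, and the groups overlapped. Its difference was 0.32 ± 0.25, and 0.04 without that array (adjusted p = 0.484 and 0.825). Psmd1, the other scaffold of the base, differed by 0.10 ± 0.12.

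In the ATPase ring, whose 6 subunits pull the substrate into the barrel, 0 of 6 genes were called with all arrays. Of all genes 7.13% were called higher and 6.77% lower, so this count is near the background. At an unadjusted p under 0.05 in the limma fit 1 of 6 was higher and 0 lower, where 13.7% and 14.5% of all genes were. All 6 differences were above 0, with a median of 0.10 and a range from 0.047 (Psmc4) to 0.41 (Psmc1). Psmc6 had values of 11.34, 11.59, 11.41, 11.46 and 11.28 after DMPT and 10.99, 11.49, 11.08, 10.99 and 11.03 with vehicle. Vehicle replicate 2 lay among the DMPT arrays, and the other 4 vehicle arrays lay below all of them. The difference was 0.30 ± 0.11 (adjusted p = 0.122) with all arrays and 0.39 ± 0.081 (adjusted p = 0.0108) without that array, where the gene was called. Psmc1 showed the opposite, with values of 12.58, 12.65, 12.56, 12.64 and 12.55 after DMPT and 12.44, 11.07, 12.41, 12.46 and 12.54 with vehicle. Its groups did not overlap, but the difference of 0.41 ± 0.24 (adjusted p = 0.332) became 0.13 without vehicle replicate 2 (adjusted p = 0.241). Psmc2, Psmc3, Psmc4 and Psmc5 differed by 0.047 to 0.11.

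The lid had 1 of 8 genes called higher with all arrays, where 7.13% of all genes were, and 3 of 8 without vehicle replicate 2, where 9.19% were. The first count is near the background. With all arrays 5 of 8 were higher and 0 lower at an unadjusted p under 0.05 in the limma fit, beside 13.7% and 14.5% of all genes. Psmd3, a structural subunit of the lid, had values of 11.10, 11.19, 11.07, 11.06 and 11.14 after DMPT and 10.70, 10.62, 10.71, 10.95 and 10.82 with vehicle. The groups did not overlap, and the gene rose by 0.35 ± 0.086 (1.28-fold, adjusted p = 0.0217), with 0.32 without vehicle replicate 2 (adjusted p = 0.0235). The call was lost without DMPT replicate 2 or 5, with the replicate block (adjusted p = 0.0642) and once the RNA ratio entered the fit (0.0919). Psmd14, the metalloprotease that cuts the ubiquitin chain off the substrate, had values of 11.63, 11.69, 11.61, 11.54 and 11.54 after DMPT and 11.23, 11.57, 11.32, 11.14 and 11.15 with vehicle. Vehicle replicate 2 was again inside the range of the DMPT arrays. The difference was 0.32 ± 0.098 (adjusted p = 0.0570), and 0.39 ± 0.074 without that array (adjusted p = 0.00671).

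By the brightest probe sets, the rest of the lid moved less. Psmd12, a structural subunit, differed by 0.23 ± 0.097 (adjusted p = 0.172), and by 0.29 without vehicle replicate 2, where it was called (adjusted p = 0.0289). Psmd8 and Psmd13 differed by 0.21 and 0.20, Psmd6 by 0.15 (0.043 without vehicle replicate 2) and Psmd11 by 0.12, and none of these was called with or without that array. The next brightest probe set of Psmd11 was called higher in the limma fit, at 0.33 ± 0.076 (adjusted p = 0.0166). Psmd7, the catalytically silent partner of Psmd14, had a difference of -0.036 ± 0.11. The median over the 8 lid genes was 0.20 with all arrays and 0.21 without vehicle replicate 2. Psmd9, a chaperone that holds part of the ATPase ring during assembly and is not in the finished particle, had values of 9.28, 9.70, 9.38, 9.33 and 9.62 after DMPT and 9.12, 8.89, 9.09, 9.17 and 9.18 with vehicle. The groups did not overlap, with vehicle replicate 2 lowest, and Psmd9 rose by 0.37 ± 0.11 (1.29-fold, adjusted p = 0.0465). It was no longer called when any array but DMPT replicate 1 was left out, and without vehicle replicate 2 the difference was 0.32 (adjusted p = 0.0647). It was lost as well with the RNA ratio (adjusted p = 0.152), the replicate block (0.0992) and the intensity trend (0.0549).

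**Figure D2:**
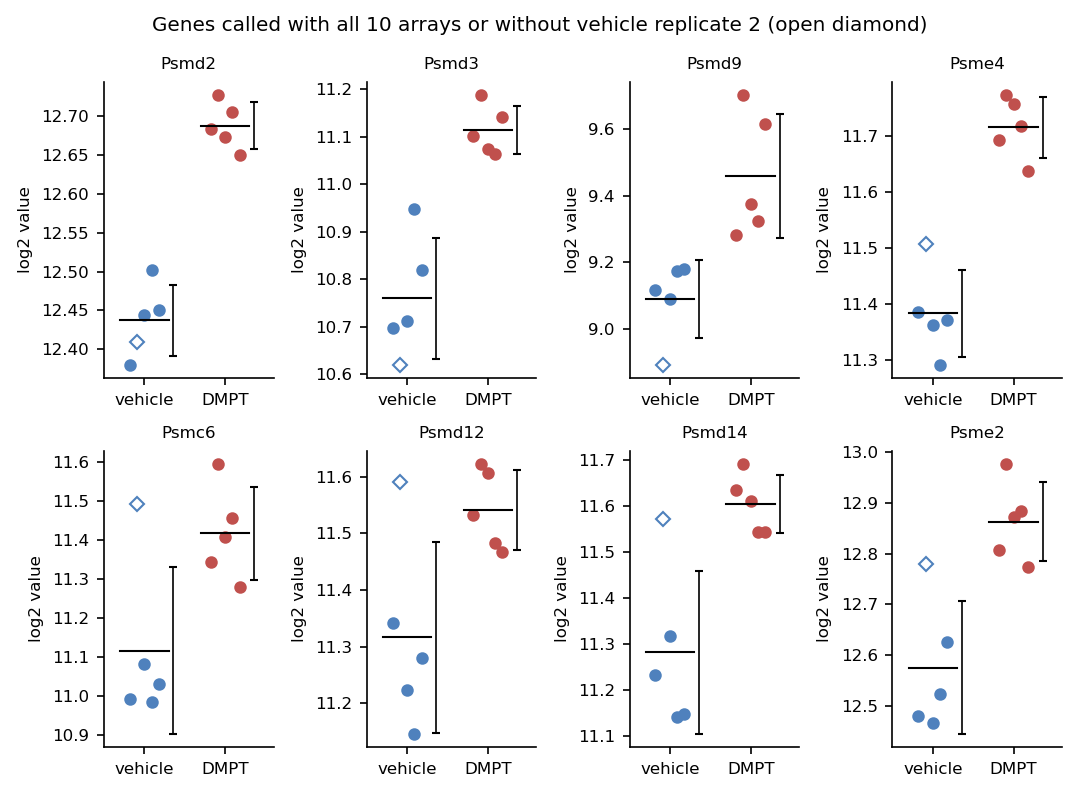
Log2 values of each array for the genes called with all 10 arrays (upper row) or without vehicle replicate 2 (lower row), with the group mean as a line and 1 SD as a bar beside it; the axes do not start at 0. Vehicle replicate 2, the open diamond, lies with the DMPT arrays for Psmc6, Psmd12, Psmd14 and Psme2 and low in the vehicle group for Psmd3 and Psmd9.

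Among the activators 1 of 3 measured genes was called higher, and 2 of 3 without vehicle replicate 2, beside 7.13% and 9.19% of all genes. With all arrays 2 of 3 were higher and 0 lower at an unadjusted p under 0.05 in the limma fit, beside 13.7% and 14.5% of all genes. Psme4 encodes PA200, a nuclear cap of the core particle. Its values were 11.69, 11.77, 11.76, 11.72 and 11.64 after DMPT and 11.38, 11.51, 11.36, 11.29 and 11.37 with vehicle, without overlap. It rose by 0.33 ± 0.078 (1.26-fold, adjusted p = 0.0182), and by 0.36 without vehicle replicate 2 (adjusted p = 0.00659); the call was lost without DMPT replicate 3 and with the replicate block (adjusted p = 0.0551). Psme1 and Psme2 encode the alpha and beta subunits of PA28, a ring-shaped cap that interferon induces, and the genes lie close together on chromosome 15 with 1 protein-coding gene between them. Psme2 had values of 12.81, 12.98, 12.87, 12.88 and 12.77 after DMPT and 12.48, 12.78, 12.47, 12.52 and 12.63 with vehicle. Only vehicle replicate 2 reached into the DMPT range, and the difference was 0.29 ± 0.089 (adjusted p = 0.0612), or 0.34 without that array (adjusted p = 0.0151). Psme1 had 13.19, 13.36, 13.23, 13.28 and 13.22 after DMPT and 13.05, 12.08, 13.08, 13.11 and 13.22 with vehicle. Here the same array was the lowest, and the difference of 0.35 ± 0.19 became 0.14 without it (adjusted p = 0.287 and 0.255).

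The alpha ring had 0 of 7 genes called by limma, beside 7.13% of all genes called higher and 6.77% lower. This count is near the background. At an unadjusted p under 0.05 in limma 1 of 7 was higher and 0 lower, where 13.7% and 14.5% of all genes were. All 7 differences were above 0. Psma5 had values of 11.85, 11.79, 11.52, 11.84 and 11.88 after DMPT and 11.66, 10.69, 11.46, 11.36 and 11.65 with vehicle. Psma6 had 13.11, 12.96, 12.87, 13.10 and 12.99 after DMPT and 12.90, 12.75, 12.80, 12.76 and 12.94 with vehicle. Both overlapped between the groups, with differences of 0.41 ± 0.17 and 0.18 ± 0.085 (adjusted p = 0.161 and 0.229). The median over the ring was 0.30 with all arrays and 0.13 without vehicle replicate 2. That array lowered the vehicle mean of Psma1, Psma2, Psma5 and Psma7, whose differences went from between 0.30 and 0.49 to between 0.098 and 0.24 without it. The same array lay 0.58 below the other vehicle arrays for Psma3, whose difference went from 0.12 to 0.00054 without it. Psma4 differed by 0.014.

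The beta ring had 0 of 6 measured genes called, beside 7.13% of all genes called higher and 6.77% lower. This count is near the background. At an unadjusted p under 0.05 in the limma fit it had 0 of 6, where 13.7% of all genes were higher and 14.5% lower. The median was 0.13 both with all arrays and without vehicle replicate 2. Psmb4, a structural subunit needed for assembly of the barrel, had values of 13.46, 13.54, 13.54, 13.47 and 13.42 after DMPT and 13.32, 13.35, 13.32, 13.34 and 13.39 with vehicle. The groups did not overlap, by a narrow gap, and the difference was 0.14 ± 0.073 (adjusted p = 0.254). Psmb2, also structural, had 12.16, 12.31, 12.24, 12.26 and 12.34 after DMPT and 12.10, 11.86, 12.15, 12.14 and 12.19 with vehicle, with a difference of 0.18 ± 0.088 (adjusted p = 0.246). Psmb1 and Psmb3, structural as well, differed by 0.11 and 0.013.

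Psmb5 and Psmb7 carry the chymotrypsin-like and trypsin-like sites. Psmb5 had values of 12.46, 12.45, 12.35, 12.46 and 12.48 after DMPT and 12.24, 12.56, 12.26, 12.27 and 12.47 with vehicle. Psmb7 had 12.19, 12.36, 12.25, 12.18 and 12.13 after DMPT and 12.08, 10.10, 12.05, 12.08 and 12.09 with vehicle. Vehicle replicate 2 was thus the highest vehicle array for one and the lowest by about 2 log2 units for the other. Psmb5 differed by 0.080 ± 0.090 (95% interval -0.12 to 0.28), and Psmb7 by 0.54 ± 0.34, or 0.15 without vehicle replicate 2 (adjusted p = 0.655, 0.363 and 0.220).

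The inducible subunits of the immunoproteasome had 0 of 3 genes called, beside 7.13% of all genes called higher and 6.77% lower. This count is near the background. At an unadjusted p under 0.05 by limma they had 0 of 3, where 13.7% of all genes were higher and 14.5% lower. Their median was -0.011, a value whose sign turned in some alternatives, such as 0.051 without vehicle replicate 5. Psmb8, the inducible chymotrypsin-like subunit, had values of 10.45, 10.61, 10.54, 10.83 and 10.30 after DMPT and 10.54, 10.32, 10.50, 10.63 and 10.81 with vehicle. Psmb9, the inducible counterpart of Psmb6, had 11.30, 11.22, 11.33, 11.55 and 10.99 after DMPT and 11.51, 11.50, 11.32, 11.18 and 11.72 with vehicle. The groups overlapped over most of their range for both, with differences of -0.011 ± 0.12 (95% interval -0.27 to 0.25) and -0.17 ± 0.13 (95% interval -0.45 to 0.11). Psmb10, the inducible trypsin-like subunit, had 11.17, 11.23, 11.16, 11.35 and 11.15 after DMPT and 10.91, 11.57, 10.94, 11.02 and 11.26 with vehicle. Its difference was 0.070 ± 0.13, and 0.18 without vehicle replicate 2, its highest vehicle array (adjusted p = 0.80 and 0.246).

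Inducible and constitutive subunits of the same site were then set against each other within each array. Of 3 such pairs 2 could be computed, since Psmb6 was not measured. The log2 value of Psmb8 minus that of Psmb5 changed by -0.091 between the groups (two-sided exact permutation test over all labelings, p = 0.556, adjusted over the pairs 0.659), and by -0.20 without vehicle replicate 2 (exact p = 0.0952, adjusted 0.190). For Psmb10 minus Psmb7 the change was -0.47 (exact p = 0.659, adjusted 0.659), and 0.030 without vehicle replicate 2 (exact p = 0.690). Neither pair shows that the balance changed, and the second turned its sign without 1 array.

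**Figure D3:**
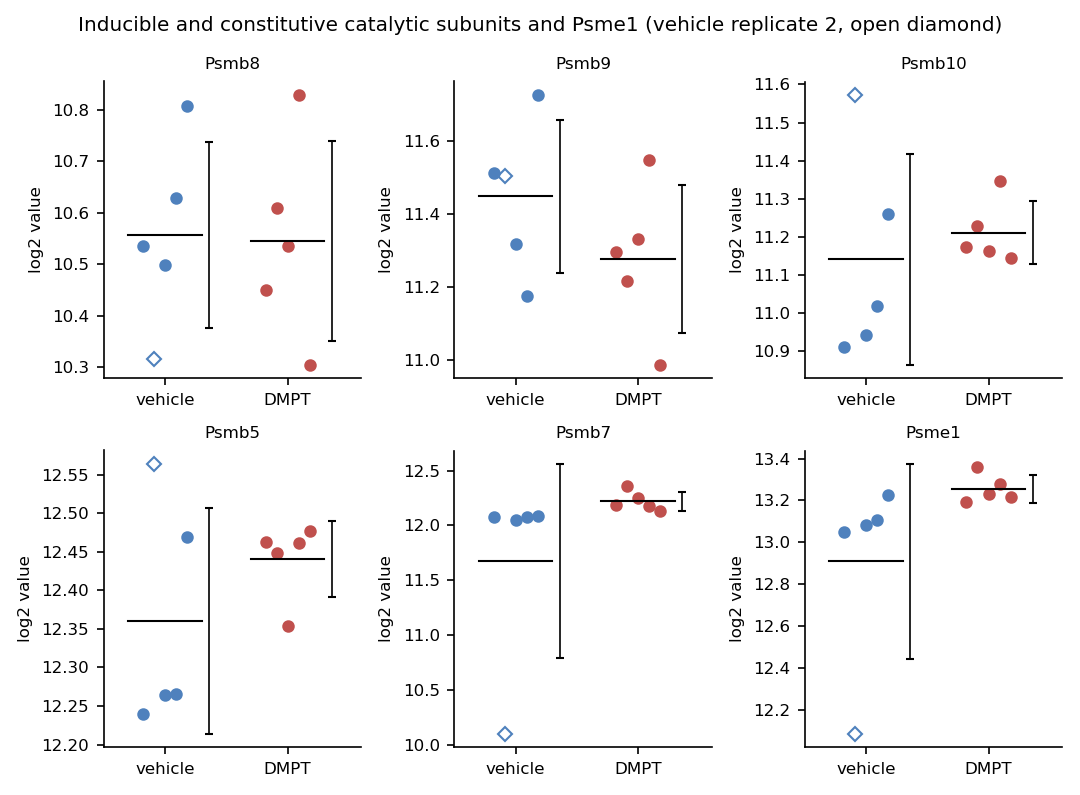
Log2 values of each array for the inducible subunits Psmb8, Psmb9 and Psmb10, the constitutive subunits Psmb5 and Psmb7, and Psme1, with the group mean as a line and 1 SD as a bar beside it; the axes do not start at 0. The groups overlap for Psmb8, Psmb9 and Psmb10, and the open diamond of vehicle replicate 2 lies at 10.10 for Psmb7 and 12.08 for Psme1, below all other arrays.

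Tap1 and Tap2, the peptide transporter genes of class I presentation, lie beside the inducible subunit genes on chromosome 20 in assembly GRCr8, with Tap1 between Psmb8 and Psmb9. They differed by 0.089 ± 0.15 and -0.0078 ± 0.099, and were not called either; Tap2 was named after its value was seen. Of 21 measured genes of the interferon response and class I presentation, 2 were called higher and 0 lower, beside 7.13% and 6.77% of all genes. Their median was -0.014. In the limma fit 3 were higher and 2 lower at an unadjusted p under 0.05, beside 13.7% and 14.5% of all genes. The called genes were Ifit2, an interferon-induced inhibitor of translation, at 0.75 ± 0.11 (adjusted p = 0.00158), and the guanylate-binding protein gene Gbp2 at 1.58 ± 0.44 (adjusted p = 0.0405), the latter lost without vehicle replicate 2 (adjusted p = 0.0765), without 6 others of the 10 arrays in turn and with the RNA ratio (adjusted p = 0.160). Irf1, the transcription factor that induces the immunoproteasome, differed by 0.21 ± 0.094 (adjusted p = 0.184). Leukocytes hold much immunoproteasome: of 25 measured leukocyte markers 5 were higher (Cd68, Cd14 and the complement genes C1qa, C1qb and C1qc) and 4 lower (Cd74, RT1-Da, Cd37 and Lyz2), 11 of the 25 lay below the median of the arrays, and the mean list level was 8.62 to 8.96 after DMPT and 8.66 to 8.82 with vehicle. Their part in the values of Psmb8, Psmb9 and Psmb10 was not tested.

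Vehicle replicate 2 departed from its group gene by gene rather than across the proteasome as a whole. Set against the mean of the other 4 vehicle arrays, it lay more than 0.5 log2 units lower for 10 of 37 genes (27.0%). The share was 8.40% of all genes and 11.9% of the 7040 genes brighter than Psmd9, the dimmest member. The other members were brighter than Psmd9, so the 7040 genes are not matched to them in level. The 10 genes were Psma1, Psma2, Psma3, Psma5, Psma7, Psmb7, Psmc1, Psmd4, Psmd6 and Psme1, and the largest gap was -1.97, for Psmb7. Vehicle replicate 2 lay more than 0.5 higher for 1 of 37 genes, Psmb10, where it did so for 18.7% of all genes. Its median over the 37 genes was -0.017, beside 0.13 over all genes. No other array lay more than 0.5 below its group for any of the 37 genes. The part of RNA quality in this pattern was not tested.

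**Figure D4:**
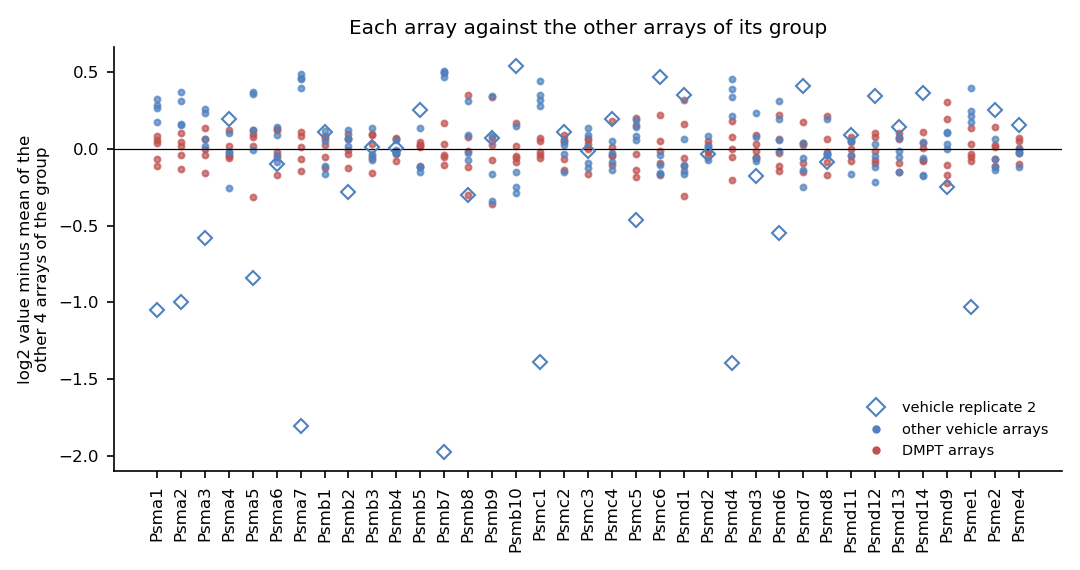
For each of the 37 genes, the log2 value of each array minus the mean of its 4 fellow arrays. Vehicle replicate 2, the open diamond, lies below -0.5 for 10 genes and reaches -1.97 for Psmb7, and no other array lies below -0.5.

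Probe sets of the same gene did not always move alike. Of the 51 probe sets 6 were called higher, where 5.37% of all probe sets were, and 0 lower, where 5.74% were. Psme4 had a second called probe set at 0.62 ± 0.13 (adjusted p = 0.0119), kept without each array in turn, and another at -0.026 ± 0.089 that was not called. For Psmd11, a lid subunit linked to proteasome assembly in stem cells, the brightest probe set differed by 0.12 ± 0.078 and the next by 0.33 ± 0.076 (adjusted p = 0.0166), a call kept without each array in turn. Psmd14 had 3 probe sets with differences of 0.32, 0.33 and 0.65, none called with all arrays; vehicle replicate 2 lay 0.36 above the other vehicle arrays in the first and 0.39 and 1.18 below them in the others. The brightest 2 probe sets of Psmc6 differed by 0.30 and 0.26 and were both called without that array (adjusted p = 0.0108 and 0.0401). The third differed by -0.036. The second probe sets of Psmd7, Psmd9 and Psme1 differed by 0.22, 0.14 and 0.0029 and were not called. The remaining probe sets of Psmb5, Psmc4 and Psmd11 had group means between 4.69 and 5.37, below the lower quartile of every array (6.37 to 6.51), so their differences are not compared.

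**Figure D5:**
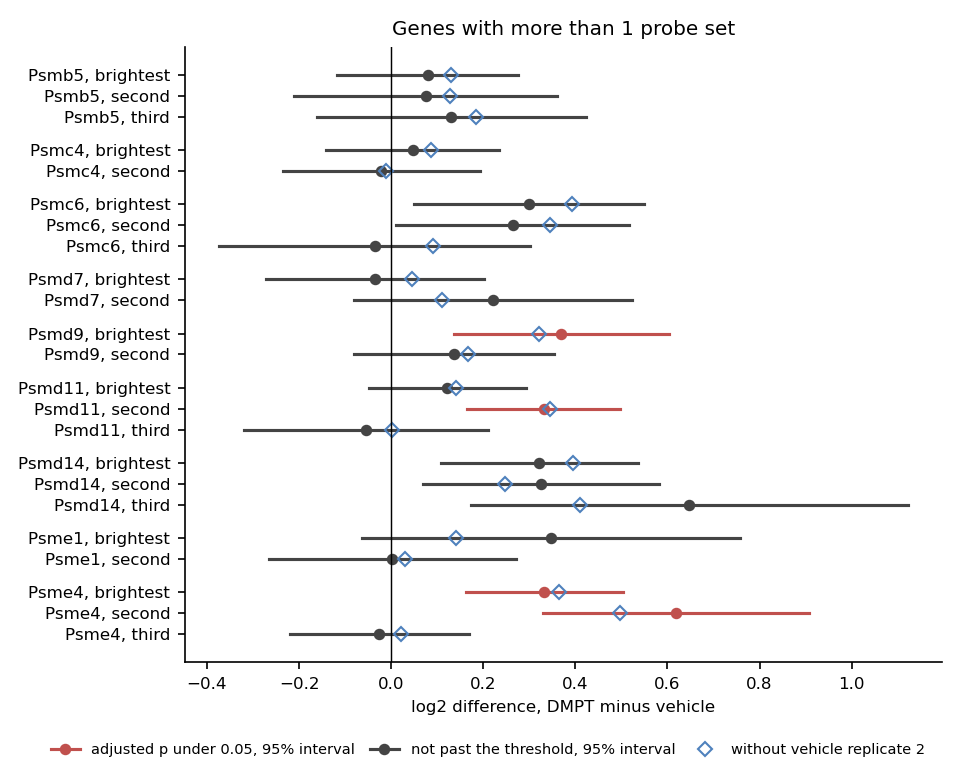
Log2 difference, DMPT minus vehicle, of every probe set of the 9 genes with more than 1, ordered by brightness, with 95% intervals from the limma fit (red where the adjusted p is under 0.05) and the difference without vehicle replicate 2 as an open diamond. Psme4 holds 2 called probe sets beside one near 0, and the dim probe sets of Psmb5, Psmc4 and Psmd11 lie below the lower quartile of the arrays.

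Proteins that build, bind or feed the proteasome were read from lists of their own. None of 7 measured assembly chaperone genes was called by limma, where 7.13% of all genes were higher and 6.77% lower. At an unadjusted p under 0.05 in limma 0 of 7 were, where 13.7% of all genes were higher and 14.5% lower. Pomp, which helps close the barrel, differed by 0.14 ± 0.088. None of 12 other subunits and bound proteins was called, with 1 higher and 1 lower at an unadjusted p under 0.05 and a median of 0.097; without vehicle replicate 2 the ubiquitin shuttle gene Ubqln4 was called higher (0.39, adjusted p = 0.0450). Among these the ubiquitin receptor gene Adrm1 differed by 0.081 ± 0.092, the deubiquitinase gene Usp14 by 0.12 ± 0.078 and Psmf1, an inhibitor of the core particle, by -0.45 ± 0.16 (adjusted p = 0.10, and 0.138 without vehicle replicate 2). The values of Psmf1 were 11.21, 11.30, 10.97, 11.24 and 11.03 after DMPT and 11.24, 12.09, 11.25, 11.63 and 11.78 with vehicle, and the groups overlapped.

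Of 11 regulators, the repressor of NRF2 targets Bach1 was called higher, and none was lower, beside 7.13% and 6.77% of all genes. Bach1 had values of 9.66, 9.37, 9.56, 9.57 and 9.76 after DMPT and 8.68, 8.58, 9.24, 9.24 and 8.85 with vehicle. The groups did not overlap, and it rose by 0.67 ± 0.14 (adjusted p = 0.0121), a call lost once the RNA ratio entered the fit (0.49, adjusted p = 0.0633). Without vehicle replicate 2 Fzr1 was also called higher (0.35, adjusted p = 0.0163) and Ddi2, the protease that activates NRF1, lower (-0.47, adjusted p = 0.0251). Another gene, Nfyc, was called lower without vehicle replicate 1, with the intensity trend and with the mean of probe sets. The genes of the regulators themselves, Nfe2l1 and Nfe2l2, differed by 0.069 ± 0.087 and 0.11 ± 0.11 and were not called. Of 10 ubiquitin and conjugating enzyme genes, Ube2c, the conjugating enzyme of the anaphase-promoting complex and a gene of dividing cells, rose by 1.25 ± 0.17 (adjusted p = 0.000841). Without vehicle replicate 2 Ube2d2 was called too (0.28, adjusted p = 0.0432). With all arrays the other 9 were not called, among them the activating enzyme gene Uba1 at 0.0058 ± 0.11, named after its value was seen.

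The last list held genes for the extraction and delivery of ubiquitin-tagged proteins. Of 11 measured, 4 were called higher and 0 lower, beside 7.13% and 6.77% of all genes, with a median of 0.34. Zfand2a had values of 11.09, 10.93, 10.91, 10.97 and 10.25 after DMPT and 9.97, 10.35, 9.99, 9.84 and 10.01 with vehicle. DMPT replicate 5 lay among the vehicle arrays. Zfand2a, a stress-induced zinc finger protein that binds the proteasome, rose by 0.80 ± 0.16 (adjusted p = 0.00826), Zfand5, which activates it, by 0.49 ± 0.10 (adjusted p = 0.0109), the autophagy receptor gene Sqstm1 by 0.52 ± 0.11 (adjusted p = 0.0128) and the cofactor gene Ubxn1 by 0.36 ± 0.092 (adjusted p = 0.0266). The calls of Zfand2a, Zfand5 and Sqstm1 were kept without each array in turn, and that of Ubxn1 depended on 6 of the 10 arrays, each left out by itself. With the RNA ratio as a covariate Zfand5, Sqstm1 and Ubxn1 were no longer called (adjusted p = 0.0508, 0.0585 and 0.0507), and with the mean of probe sets Sqstm1 was not (0.0546). Of 10 measured NRF2 targets 9 were called higher, with a median of 1.35 and a range from 0.12 to 4.12, where the proteasome genes ranged from -0.17 to 0.54. The targets with the smallest p-values were the cystine transporter gene Slc7a11 at 4.12, the glutathione synthesis genes Gclm and Gclc at 1.84 and 1.42, and the sulfiredoxin gene Srxn1 at 2.86.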

How the data were processed

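Laser-captured nasal transitional epithelium of 10 rats was measured on 10 Affymetrix Rat230_2 arrays, 5 per group. The deposited log2 values had been normalized by the authors with RMA, per the submitters' processing notes (version not given in the sources used here); RMA quantile-normalizes, so a shift common to all genes is removed. The table held 31099 probe sets; 57 controls were left out and 31042 tested.

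Probe sets were named from the platform annotation: 20826 had 1 gene symbol, 436 several and 9780 none. The probe set with the highest mean stood for its gene. Groups were compared with limma 3.58.1 (lmFit, eBayes) in R 4.3.3, with Benjamini-Hochberg adjustment over all probe sets and a threshold of 0.05. Differences between paired subunits used two-sided exact permutation tests. The number of arrays limits the precision. On simulated data of 31042 probe sets, 100 drawn at random were changed by 0.5 log2 units and 100 by 1.0. Of these 20% and 78% were recovered. They came from all levels, and far fewer changed there than were called in the data. These shares therefore do not give the recovery for the proteasome genes.

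Array values are given for the 2 genes with the smallest p-values of each subcomplex, the catalytic subunits and the activators; from other lists, the called genes with the 4 smallest p-values and a few regulators and bound proteins are named, mostly by their difference. The members and lists were chosen with earlier results of these data known. Alternatives left out single arrays, added a replicate block, array weights, an intensity trend with a robust prior or the RNA ratio as a covariate, removed the dimmest 25% of probe sets, centred or quantile-normalized the arrays, or averaged the probe sets of a gene.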

Additional observations from a re-analysis of the deposited data

Results flagged for a closer look

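In 14 of 74 groups of 5 arrays, taken over the 37 genes, 1 array lay apart from the other 4 by Dixon's criterion. Chance marks about 1 in 20 groups. The share marked over all genes was not counted, so the number cannot be read as particular to the proteasome genes. Vehicle replicate 2 was the array marked in most of them, 10 times as the lowest and 1 time as the highest. Vehicle replicate 2 was the lowest array of its group for Psma1 (10.93, others 11.91 to 12.03), Psma2 (11.62, others 12.54 to 12.71), Psma3 (10.95, others 11.43 to 11.62) and Psma7 (11.08, others 12.84 to 12.92) of the alpha ring. It was also the lowest for Psmb2 (11.86) and Psmb7 (10.10) of the beta ring, Psmc1 (11.07) and Psmc5 (11.46) of the ATPase ring, the ubiquitin receptor Psmd4 (9.63) and the activator Psme1 (12.08). It was the highest for Psmc6 (11.49, others 10.99 to 11.08).

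DMPT replicate 3 was the lowest of its group for Psma5 (11.52, others 11.79 to 11.88) and Psmb5 (12.35, others 12.45 to 12.48). Vehicle replicate 5 was the highest for Psmd8 (10.63, others 10.41 to 10.45).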

How the results depend on the processing

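No called value changed sign under the alternatives run. Uncalled values did: Psmb10 minus Psmb7 went from -0.47 to 0.030 without vehicle replicate 2, and the immunoproteasome median from -0.011 to 0.028 with centring, with a range of -0.082 to 0.051 when single arrays were left out. The number of proteasome genes called higher, 4 with all arrays, was 8 with array weights and 0 with the replicate block, and ranged from 1 to 7 when single arrays were left out; none was called lower under any alternative. The replicate block is a blocked fit on numbers that the titles share. The labels do not say whether these numbers pair animals. Same-numbered arrays deviated together at over 0.1 in 2 of 5 pairs, too few pairs to settle this. The block gave 1545 probe sets higher and 1825 lower. Over all probe sets, 1668 higher and 1783 lower with all arrays became 1137 to 2130 and 1022 to 1886 when single arrays were left out, and the RNA ratio as a covariate gave 951 lower. By subcomplex, the beta ring had 1 gene higher with the intensity trend, and the ATPase base 1 with array weights or the RNA ratio (0 to 1 without single arrays). The non-ATPase base had 0 with the block, quantile normalization or the RNA ratio (0 to 1 without single arrays). The lid had 0 with the block, 3 with array weights and 2 with the intensity trend, without the dimmest probe sets, with centring or with the mean of probe sets (0 to 3 without single arrays). The activators had 0 with the block and 2 with the intensity trend, array weights, centring, the RNA ratio or the mean of probe sets (0 to 2 without single arrays). The cause of these changes was not tested. With the RNA ratio Psmd2, Psmd3 and Psmd9 lost their calls and 3 other members gained one. The number of proteasome genes called higher was thus 4, the same as without the ratio. Of the other lists 1 of 4 called genes for ubiquitin extraction, 0 of 1 regulators and 1 of 2 interferon genes kept theirs. The median difference ranged over single arrays left out from 0.14 to 0.21 for all 37 genes and from 0.13 to 0.37 for the alpha ring.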
